A study of Drosophila melanogaster with 2 samples.

Results

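Cytosolic ribosomal protein genes were taken as all protein-coding genes of the Ensembl annotation whose symbol begins with RpL or RpS followed by a digit, or with RpLP. The rule gave 92 genes among 13968 protein-coding genes. By symbol alone, 54 were counted to the large subunit, 4 with an RpLP symbol included, and 38 to the small subunit. Of these, 5 carry a symbol ending in -like and are counted here. Chromatin immunoprecipitation sequencing (ChIP-seq) mapped Rfx, a transcription factor of the RFX family, in whole embryos of Drosophila melanogaster that carried an Rfx-eGFP insertion and were aged 0 to 24 h. The description in the labels names an antibody against GFP, whereas their antibody field reads Rfx. Chromatin was sonicated to 200 to 800 bp. The 2 biological replicates form 1 group, with no other genotype, treatment or stage to contrast, and each pooled all cell types of the embryo over the whole of that age range. The files hold dm6 peak positions without read counts. Sequencing depth is therefore unknown, and the control library was not analysed here. Of 9250 peaks in the main set, called from both replicates, 9247 lay on the 7 chromosome arms used here. The authors' conservative set from both replicates held 6978 peaks and the replicates' own sets held 6297 and 6953.

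Each cytosolic ribosome joins a large subunit, which forms peptide bonds, to a small subunit, which decodes the messenger RNA, and each subunit is built of ribosomal RNA and many small proteins. The genes for these proteins are among the most highly transcribed in growing cells, and losing a single copy of many of them gives flies the slow development and short bristles of the Minute phenotype. Their promoters in Drosophila are known for the TCT or polypyrimidine initiator, an element in which transcription starts at a C within a run of pyrimidines. RFX factors bind the X-box, a palindrome of a pair of short arms, and are best known as regulators of genes for building cilia.

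A gene was counted as having a peak where a peak summit, the single base the peak caller gives as the centre of enrichment, lay within 500 bp of one of its annotated transcription start sites (TSSs). The promoters below are those of the 4 genes with the strongest such peaks and of paralogous genes with and without a peak. They run 5′ to 3′ on the gene's strand from 100 bases before the TSS nearest to the main-set summit, or the most upstream TSS where there was no summit, to 20 bases after its start. That of RpL7 is shorter because the bases before it lie in an exon of Ripalpha. The sequences are from the RefSeq genome of the same build. Capitals mark 3 motifs: TATCGATA, the site of the factor DREF; CTTT with a C or T on either side within 10 bp of the TSS, the TCT initiator; and GGCAAC or its complement GTTGCC, 1 arm of the X-box.
RpL7, chr2L:10200975-10201023, plus strand: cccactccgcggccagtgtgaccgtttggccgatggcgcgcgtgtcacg
RpS27, chr3R:25247495-25247614, minus strand: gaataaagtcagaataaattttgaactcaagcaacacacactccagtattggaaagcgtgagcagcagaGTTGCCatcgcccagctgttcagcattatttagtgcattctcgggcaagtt
RpL23A, chr3L:1668635-1668754, minus strand: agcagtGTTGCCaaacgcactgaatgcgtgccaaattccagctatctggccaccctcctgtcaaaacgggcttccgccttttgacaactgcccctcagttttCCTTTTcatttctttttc
RpL34b, chr3R:9401207-9401326, minus strand: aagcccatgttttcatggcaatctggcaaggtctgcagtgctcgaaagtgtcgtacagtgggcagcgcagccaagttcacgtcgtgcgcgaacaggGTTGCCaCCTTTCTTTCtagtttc
RpL10Ab, chr3L:11822751-11822870, plus strand: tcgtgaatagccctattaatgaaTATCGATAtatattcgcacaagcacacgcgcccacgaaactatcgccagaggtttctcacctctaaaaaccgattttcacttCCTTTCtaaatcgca
RpL10Aa, chr3R:15037266-15037385, plus strand: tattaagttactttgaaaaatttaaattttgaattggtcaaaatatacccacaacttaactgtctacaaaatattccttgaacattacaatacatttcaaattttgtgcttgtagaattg
RpL24, chr2L:13395112-13395231, minus strand: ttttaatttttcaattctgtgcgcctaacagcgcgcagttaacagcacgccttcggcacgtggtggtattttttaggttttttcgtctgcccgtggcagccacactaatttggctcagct
RpL24-like, chr3R:11431563-11431682, minus strand: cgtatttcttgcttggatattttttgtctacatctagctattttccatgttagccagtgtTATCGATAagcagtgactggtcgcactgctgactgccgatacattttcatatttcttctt
RpL7-like, chr2L:12056226-12056345, plus strand: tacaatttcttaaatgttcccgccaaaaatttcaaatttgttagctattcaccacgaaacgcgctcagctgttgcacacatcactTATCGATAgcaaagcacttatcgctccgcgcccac

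In RpL7, RpS27, RpL24 and RpL7-like the TCT initiator lay at another annotated TSS of the gene than the one above. For the 3 with a main-set peak it was downstream. The 20 bases around it are given here with the element in capitals, and the C of its CTTT lay 99, 46 and 41 bp from the TSS shown above for RpL7, RpS27 and RpL24.
RpL7 initiator, chr2L:10201093-10201112, plus strand: cgtttccggTCTTTCtttcc
RpS27 initiator, chr3R:25247459-25247478, minus strand: accccacttCCTTTTccgtg
RpL24 initiator, chr2L:13395081-13395100, minus strand: cttccgtttTCTTTTctttt

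Most cytosolic ribosomal protein genes had an Rfx-eGFP peak at a TSS. In the main set 75 of the 92 did, or 81.5% (95% Wilson interval 72.4 to 88.1), against a background of 35.4% of all protein-coding genes. In the conservative set 68 of the 92 had one, or 73.9%, against 29.9% of all protein-coding genes. In the set of replicate 1 it was 71, or 77.2%, against 28.2%, and in that of replicate 2 it was 75, or 81.5%, against 29.6%. The share was thus above the background in both replicates and in both sets made from them jointly. Wilson intervals cover counting error over genes only, and, since the genes were chosen with this peak pattern known, no test of the share was made.

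**Figure D1:**
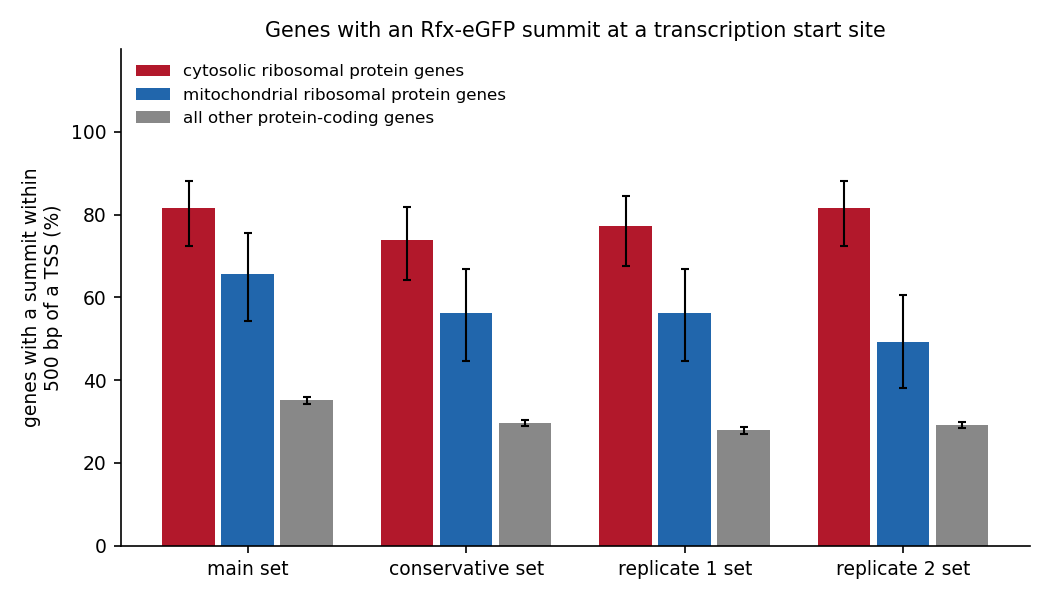
Percent of genes with a peak summit within 500 bp of a TSS (vertical axis) in the main, conservative, replicate 1 and replicate 2 peak sets, for cytosolic ribosomal protein genes (red, n = 92), mitochondrial ribosomal protein genes (blue, n = 73) and all other protein-coding genes (grey, n = 13876); bars are shares and error bars 95% Wilson intervals. The red bars stand between 73.9% and 81.5%, the grey bars between 27.8% and 35.1%.

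The subunits did not keep one order across the sets. In the main set 43 of 54 large subunit genes (79.6%, 67.1 to 88.2) and 32 of 38 small subunit genes (84.2%, 69.6 to 92.6) had a peak. The set of replicate 1 held 44 large subunit genes (81.5%) and 27 small subunit genes (71.1%), and that of replicate 2 held 42 (77.8%) and 33 (86.8%). The order of the subunits thus turned round between the replicates, and the intervals overlapped in each set. The median signal percentile in the main set was 87.8 over the 43 large subunit genes and 84.5 over the 32 small subunit genes.

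Genes for related functions were set beside them. The 73 mitochondrial ribosomal protein genes, whose products build the ribosome of the mitochondrion, had a main-set peak in 48 cases (65.8%, 54.3 to 75.6), and in 41 and 36 cases in the sets of replicates 1 and 2. Of 30 genes for ribosome assembly and growth, 23 had a main-set peak (76.7%, 59.1 to 88.2), and 18 in each replicate's set. The strongest in that list was eIF6, whose product keeps free large subunits from joining, with a signal of 3965 and a summit at -100 bp in the main set, at 2451 and -100 bp in replicate 1 and at 1536 and -100 bp in replicate 2. This was above every cytosolic ribosomal protein gene in all 3 sets. The gene for DREF itself, Dref, shares its peak with RpL13, the summit lying 24 bp upstream of RpL13 and 60 bp upstream of Dref. Of the 30, 7 had no main-set peak, among them Nop56, Nmd3, Tif-IA, Polr1A and Polr1B, which serve the making of ribosomal RNA or the export of the large subunit.

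Signals were read within one list at a time, because the scale of the deposited signal is not stated. The percentile of a peak is the share of peaks in its own list with a signal no higher. Where ribosomal protein genes had a peak, it was mostly in the upper part of the list, and none was at the very top. Over the 75 genes with a main-set peak the signal ran from 89.7 to 1564 with a median of 343, against a median of 168 and a highest value of 6099 for the 4874 other protein-coding genes with one. The median percentile was 86.8, against 65.7 for the other genes. Replicate 1 gave 78.1 against 62.4, and replicate 2 gave 86.5 against 60.1. Of the 75 genes, 53 (70.7%) were at or above percentile 75 of the main set, against 38.2% of the other genes.

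The strongest peaks belonged to genes of both subunits. RpL7, a large subunit gene (FBgn0005593), had a main-set signal of 1564 at chr2L:10200881-10201185, with 951 in replicate 1 and 602 in replicate 2, and its summit 24, 25 and 24 bp downstream of the TSS in the 3 sets. RpS27, a small subunit gene (FBgn0039300), had 1496 at chr3R:25247364-25247693, with 877 in replicate 1 and 611 in replicate 2. They held ranks 77 and 81 of the main set. The percentile of RpL7 was 99.2 in the main set and 98.9 in each replicate, and that of RpS27 was 99.1, with 98.7 in replicate 1 and 98.9 in replicate 2.

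RpL23A and RpL34b, large subunit genes that follow in rank, had main-set signals of 1118 and 1104. RpL23A had 677 in replicate 1 and 452 in replicate 2, with summits at -96, -97 and -102 bp in the main set and replicates 1 and 2. RpL34b had 680 and 419, with summits at -77, -90 and -71 bp. The small subunit gene RpS28b had a main-set signal of 955, with 558 in replicate 1 and 407 in replicate 2. RpL41, which encodes the shortest ribosomal protein, had 920, with 533 in replicate 1 and 380 in replicate 2. RpL32, also known as rp49 and widely used as a reference gene in fly expression work, had 887, with 555 and 332.

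The remaining genes of the strongest 12 were RpL14, RpS21, RpL17, RpS29 and RpL19, with main-set signals between 604 and 884. RpS21 (847) has been studied as a gene whose loss lets larval tissue overgrow. RpS29 (610) had its summit 1 bp downstream of the TSS in the main set and in both replicates. All 12 were called in both replicates, at percentiles from 89.4 to 98.9 in replicate 1 and from 92.3 to 98.9 in replicate 2.

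At the lower end, RpS9 had a main-set signal of 89.7, RpL6 93.8, RpS5b 93.8, RpL35 97.8 and RpS24 99.9. None of these 5 was called in both replicates' sets. RpS9, RpS5b, RpL35 and RpS24 were called in the set of replicate 2 alone, and RpL6 in neither. RpL35 also had the only main-set score below the maximum of 1000 among the 75 genes, at 943, the score being the authors' reproducibility score with a minimum of 830 in this set.

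Both replicates' sets held a summit for 66 of the 92 genes (71.7%, against 22.9% of the other protein-coding genes). In all, 5 genes (5.43%, against 4.99%) were called in replicate 1 alone and 9 (9.78%, against 6.38%) in replicate 2 alone. The other 12 were called in neither. Over the 66 genes the percentile in replicate 1 minus that in replicate 2 had a median of -5.71, and it was negative in 51 of the 66. The same difference over the 3171 other genes called in both was 0.72. Most ribosomal protein gene peaks thus stood lower in the list of replicate 1 than in that of replicate 2, and the other genes were nearly balanced. The cause was not tested.

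**Figure D2:**
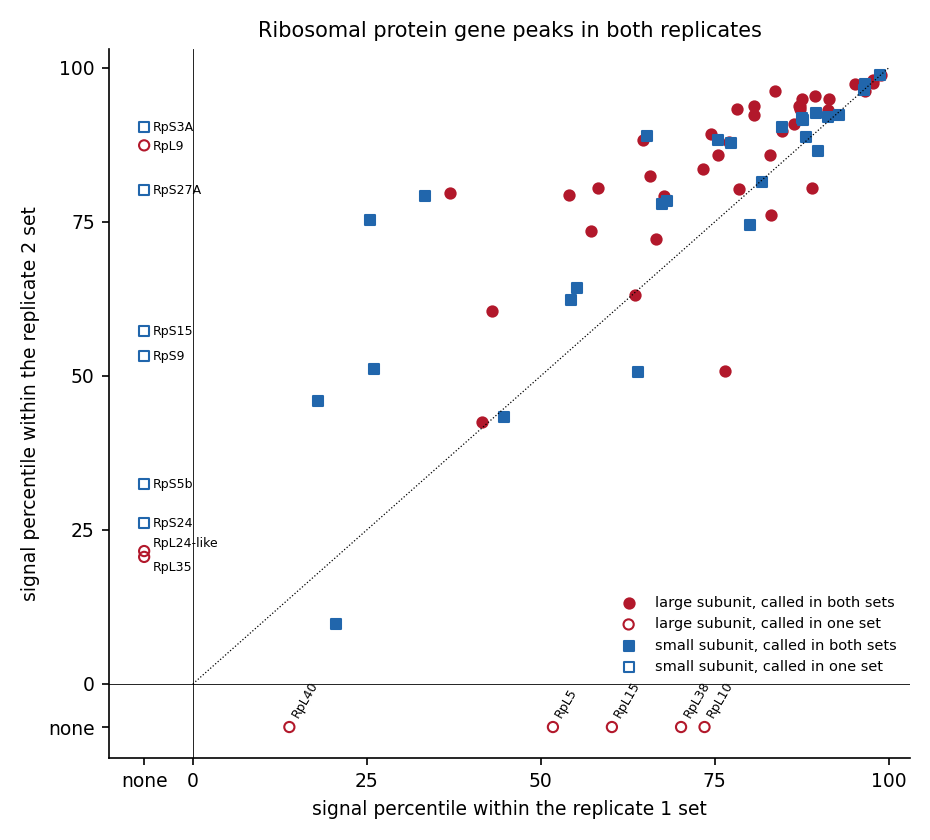
Signal percentile of the TSS peak of each cytosolic ribosomal protein gene within the set of replicate 1 (horizontal) and of replicate 2 (vertical). Filled symbols are the 66 genes called in both sets, open symbols with names the 14 called in one, placed at none on the other axis; red circles are large and blue squares small subunit genes, and the dotted line marks equal percentiles.

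The 5 genes called in replicate 1 alone were all of the large subunit. RpL10, whose product is among the last to join the large subunit, had a signal of 166 in replicate 1 with a summit 44 bp upstream of its TSS. It had no summit within 500 bp in the ranked list of replicate 2, which keeps peaks below the threshold too. RpL38 likewise had 152 in replicate 1 at -83 bp and no entry in replicate 2. Neither had an entry in the ranked list made from both replicates. RpL5, which carries the 5S ribosomal RNA into the large subunit, had 98.8 in replicate 1 and no entry in the ranked list of replicate 2, but 180 in the main set. RpL15 had 117 in replicate 1, none in replicate 2 and 168 in the main set. RpL40, a fusion of ubiquitin to a large subunit protein, had 51.3 in replicate 1 at -157 bp. In replicate 2 it had 31.2, below the threshold, at another position, 86 bp.

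Of the 9 genes called in replicate 2 alone, 6 were of the small subunit. RpS3A, the one member on chromosome 4, had 208 in replicate 2 at -41 bp and no entry in the ranked list of replicate 1. RpL9 had 176 in replicate 2 at -15 bp and RpS27A, the second gene with a ubiquitin fusion, 135 at -61 bp, again with no entry in the ranked list of replicate 1. RpS27A nevertheless had 335 in the main set, where RpL9 and RpS3A were absent. RpS15, RpS24, RpL35, RpS5b, RpS9 and RpL24-like had signals from 51.0 to 81.6 in replicate 2 and entries below the threshold in replicate 1, from 25.1 to 55.1. The entry of 25.1, of RpL24-like, lay at 463 bp, whereas the replicate 2 summit of that gene lay at -27 bp. A thresholded peak in one replicate and no ranked entry in the other was thus seen at RpL10, RpL38, RpL5, RpL15, RpS3A, RpL9 and RpS27A. Their percentiles within the replicate that held the peak ran from 51.7 for RpL5 and 60.2 for RpL15 to 90.3 for RpS3A. Of the 75 genes with a main-set peak, 1 (1.33%) had no entry in the ranked list of replicate 1. The share for the other protein-coding genes with a main-set peak was 4.04%. For the ranked list of replicate 2 it was 2 of the 75 (2.67%), against 0.53%. At the level of the ranked lists 86 of the 92 genes had an entry in replicate 1 (against 65.3% of all protein-coding genes), 86 in replicate 2 (against 73.0%) and 87 in the joint list (against 75.3%), and the background there is high.

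Of the 92 genes, 17 had no main-set summit within 500 bp of a TSS: RpL10, RpL10Aa, RpL13A, RpL21, RpL22-like, RpL24-like, RpL37-2, RpL38, RpL40, RpL7-like, RpL9, RpS10a, RpS15Ab, RpS19b, RpS28-like, RpS3 and RpS3A. Of the 17, 4 had a main-set summit between 500 and 1000 bp from a TSS, namely RpL24-like at 616 bp, RpL40 at -670 bp, RpS28-like at 726 bp and RpS19b at -899 bp, negative values being upstream. The nearest main-set summit to RpS3, which sits where the messenger RNA enters the small subunit, was at -1801 bp. Its TSS held an entry of 36.9 in the joint ranked list with a score of 76, far under the minimum of 830.

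RpL13A, a large subunit gene, was absent from every thresholded set although its ranked entries were strong. It had 270 in replicate 1 at -75 bp, 341 in replicate 2 at -49 bp and 609 in the joint list at -62 bp, each with a score of 1000. A total of 221 peaks of the joint ranked list had a score at or above 830 and were not in the main set, and RpL13A was the one cytosolic ribosomal protein gene without a main-set summit that had such a peak. The authors list an additional input of unstated kind for the thresholded sets that the ranked lists do not have. Its part in the absence of RpL13A from those sets was not tested. RpL24-like missed the minimum by 1 in the joint list, with a score of 829 and a signal of 54.8. In a second ranked list made from both replicates the same peak had a score of only 81. RpL21 was the only one of the 92 genes with no summit within 500 bp of a TSS in any list, ranked lists included.

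Several of the genes with peaks missing from some lists lie near the centromere ends of the arms. Of the 92 genes, 10 lay within 6 Mb of the end of the arm that faces the centromere, a distance chosen after the values were seen: RpL10, RpL13A, RpL15, RpL21, RpL30, RpL35A, RpL38, RpL5, RpS10b and RpS26. Of these 6 had a main-set peak, 8 one in the set of replicate 1 and 4 one in that of replicate 2. Of the 81 members farther out on these arms 69 (85.2%), 63 (77.8%) and 70 (86.4%) did in the main set and in replicates 1 and 2. For all protein-coding genes within the same distance the shares were 30.5%, 26.0% and 23.6%, and for those farther out 36.3%, 28.6% and 30.4%. The part of this position in the missing peaks was not tested.

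Many paralogous groups were mixed. Of 13 groups of paralogues with 27 genes, 9 held both genes with and genes without a main-set peak, and the other 4 had a peak at every member. With a 1000 bp window 6 groups were mixed. RpL7 (1564) stood against RpL7-like, RpL22 (570) against RpL22-like and RpL24 (559) against RpL24-like, none of the -like genes having a main-set summit at the TSS. RpL24-like was called in replicate 2, at 51.5 with a score of 1000. RpL22-like is known for its expression in the testis, and yeast relatives of RpL7-like and RpL24-like are assembly factors of the large subunit and not parts of the finished ribosome. RpLP0-like, whose yeast relative is an assembly factor too, did have a peak, at 388 against 435 for RpLP0, but its summit lay nearer to the TSS of 14-3-3zeta, at 34 bp, than to its own, at 53 bp.

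Among copies with letters or numbers, RpL10Ab had 297, with 165 and 152 in replicates 1 and 2, and RpL10Aa had none. RpS15Aa (496), RpS19a (344), RpL37-1 (336) and RpS10b (262) had main-set peaks called in both replicates, while RpS15Ab, RpS19b, RpL37-2 and RpS10a had none in any thresholded set. RpS19b and RpS10a are known as copies expressed in the germ line. Within 500 bp of a TSS the joint ranked list held 65.6 for RpS19b at -329 bp and 46.8 for RpS15Ab at 33 bp. It held 36.6 for RpS10a at -123 bp and 24.6 for RpL37-2 at 127 bp. The percentiles of these entries in that list were 91.0, 84.2, 74.3 and 52.4. Their scores of 110, 75, 411 and 39 were below the main-set minimum of 830.

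Where both copies had a peak, one was usually the stronger. RpL34b had 1104 (680 and 419 in replicates 1 and 2) and RpL34a 254 (136 and 109). RpS5a had 359 (214 and 141), and RpS5b, a copy of the female germ line, had 93.8, called in replicate 2 alone at 58.5. RpS14b had 365 (185 and 180) and RpS14a 126 (63.3 and 74.6). RpS28b had 955 and RpS28a 115, the summit of RpS28a lying nearer to the TSS of Axn, and RpS28-like had none. For RpS28a the replicates gave different summits, 86.8 at -123 bp in replicate 1 and 66.5 at 473 bp in replicate 2, where the main set held 115 at -137 bp and a second summit of 96.7 at 473 bp. In RpL34, RpS14 and RpS28 the stronger copy was the same in the main set and in both replicates. Copies of near-identical sequence can share reads, and how the authors placed such reads is not given in the sources used here.

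**Figure D3:**
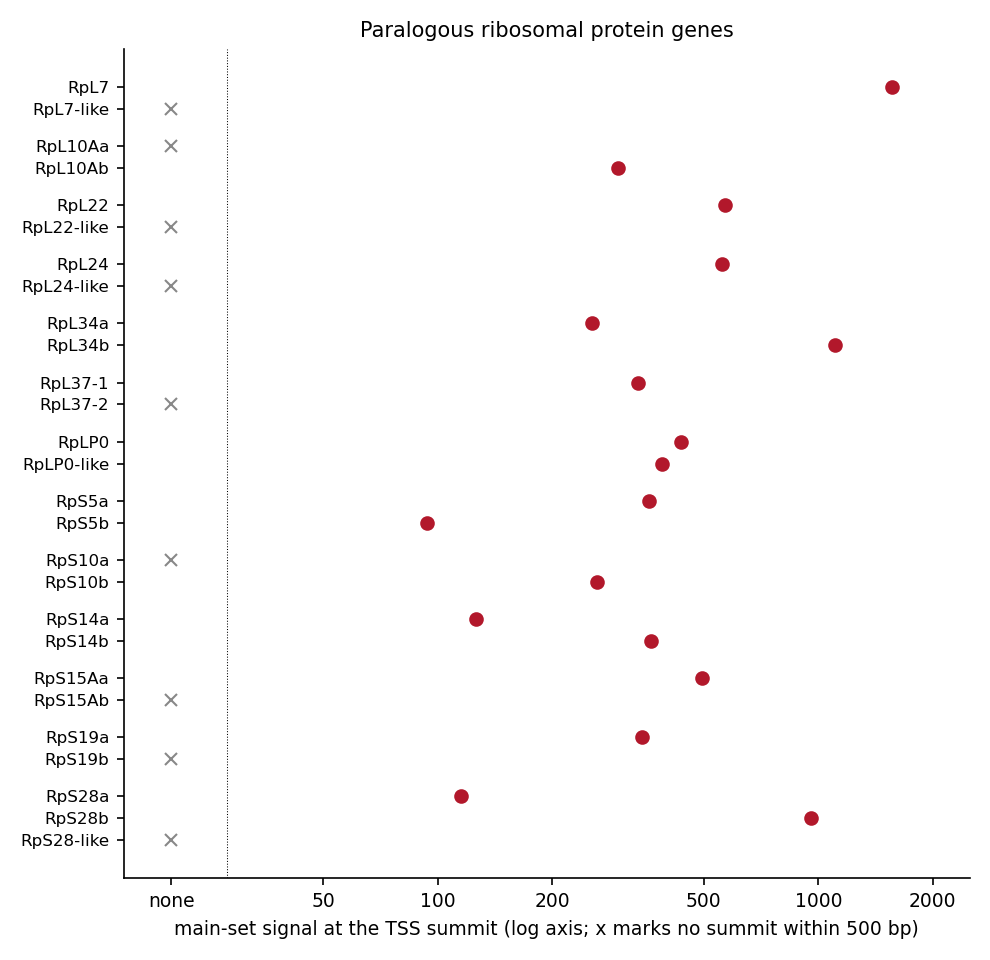
Main-set signal of the TSS peak (horizontal, log axis) for the 27 genes of 13 paralogue groups, one gene a row with groups set apart. Red points are peaks and grey crosses genes with no main-set summit within 500 bp; 9 groups hold both.

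The summits lay close to the TSS. The median signed distance was -20 bp, with a negative sign for upstream, over the 75 genes (quartiles -51.5 and -1), against -87 bp for the other 4874 genes (-192 and -29). The median distance without sign was 29 bp, against 101 bp. In replicate 1 it was 40 bp against 117 bp, and in replicate 2 it was 25 bp against 98.5 bp. In all, 51 of the 75 summits (68%) were within 50 bp of a TSS, against 26.5% for the other genes, and 71 (94.7%) within 100 bp, against 49.8%. Of the 75, 56 (74.7%) were upstream, against 83.7% for the other genes. The rest were 1 at the TSS base (RpL39) and 18 downstream.

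**Figure D4:**
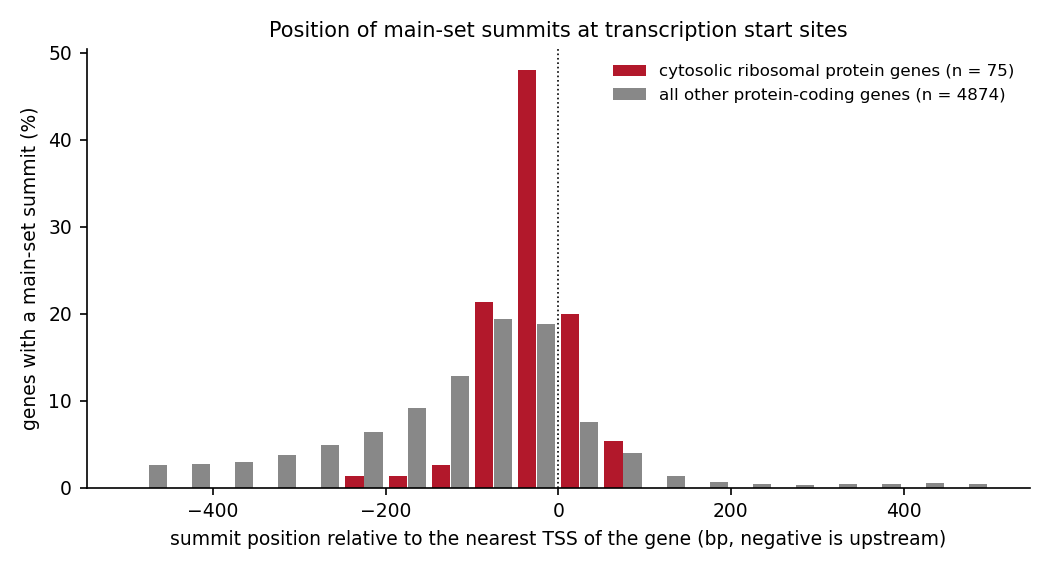
Percent of genes (vertical axis) by position of the main-set summit relative to the nearest TSS of the gene in bins of 50 bp (horizontal axis, negative upstream), for cytosolic ribosomal protein genes (red, n = 75) and all other protein-coding genes (grey, n = 4874). The red bars gather within 100 bp of the TSS, the grey bars reach farther upstream.

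The genes differ in their number of annotated TSSs. Of the 92 genes 48 had 1 TSS, and of these 34 (70.8%) had a main-set peak, against 41 (93.2%) of the 44 with several. With only the most upstream TSS of each gene used, the count with a main-set peak was again 75 of the 92. The shares by number of TSSs were not set beside those of all protein-coding genes, and the cause of their difference was not tested. Over genes with 1 TSS the median distance was 49 bp for the 34 ribosomal protein genes and 101 bp for 2890 other genes, and measured from the most upstream TSS of each gene it was 39 bp and 125 bp. The replicates placed the summits of the 66 genes called in both a median of 18.5 bp apart, against 15 bp for the other genes. The peaks were also narrower, at a median of 257 bp, against 344 bp, which is the median width of the whole main set too. Of the 75 peaks 54 (72%) were narrower than 344 bp, against 38.2% for the other genes. The ribosomal protein gene peaks also had higher signals, and whether width goes with signal was not tested.

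Mitochondrial ribosomal protein genes did not share this position. Over 48 genes their main-set summits had a median of -116.5 bp, and 10 (20.8%) lay within 50 bp of a TSS. Their median percentile in the main set was 66.1, close to the 65.7 of all other genes.

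Many of the summits could be read in relation to a neighbouring gene as well. The summit lay within 500 bp of a TSS of another protein-coding gene for 33 of the 75 genes, and nearer to it than to the ribosomal protein gene for 4, among them RpS20 (483, with CG17271), RpLP0-like (388, with 14-3-3zeta) and RpS28a (115, with Axn). The median percentile was 89.0 for the 33 genes with such a neighbour and 82.5 for the 42 without, so that strong peaks were found in both. Small nucleolar RNA genes, whose products guide the modification of ribosomal RNA, lie inside 28 of the 92 genes, and 26 of these (92.9%) had a main-set peak, against 49 of the 64 others (76.6%). The median percentiles were 91.2 and 86.3. Neither the neighbour counts nor the small nucleolar RNA counts were set beside shares over all protein-coding genes.

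Promoters were searched for 7 motifs from 200 bases before to 50 bases after each TSS, or within 10 bp of it for the TCT initiator. The TCT initiator was found in 75 of the 92 genes (81.5%), in 2 of 73 mitochondrial ribosomal protein genes (2.74%) and in 4.09% of all protein-coding genes. With only the most upstream TSS of each gene searched, it was found in 46 of the 92 (50%), against 2.75% of all protein-coding genes. Over all TSSs it stood in 65 of the 75 genes with a main-set peak (86.7%), against 5.68% of all protein-coding genes with one, and in 10 of the 17 without (58.8%). The 10 without a peak but with the initiator were RpL7-like, RpL9, RpL10, RpL13A, RpL21, RpL37-2, RpL38, RpL40, RpS3 and RpS3A, whereas RpL10Aa, RpL22-like, RpL24-like, RpS10a, RpS15Ab, RpS19b and RpS28-like lacked it. Where there was an initiator and a peak, the summit was upstream of the C of CTTT in 61 of 65 genes, by a median of 47 bp (quartiles -63 and -30 bp). The median percentile was 86.8 with the initiator and 79.4 over the 10 genes without.

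The DREF site TATCGATA, searched on both strands, was found in 27 of the 92 promoters (29.3%), against 9.41% of all protein-coding genes and 21.9% of mitochondrial ribosomal protein genes. Of the genes with a main-set peak 24 of 75 had one (32%), against 15.4% of all protein-coding genes with a peak, and of those without 3 of 17 (17.6%), namely RpL7-like, RpL24-like and RpS15Ab. Peaks of genes with the site were not stronger, at a median percentile of 84.7 against 87.6 without. Motif 1, the element bound by M1BP, was in 8 promoters (8.70%, against 4.67%). All 8 had a main-set peak, which makes 10.7% of the 75 genes with one, against 7.38% of all protein-coding genes with one: RpL7, RpL27, RpL27A, RpLP0, RpLP1, RpS9, RpS15 and RpS23.

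One arm of the X-box, GGCAAC on either strand, was about as common in these promoters as elsewhere. It was found in 17 of the 92 (18.5%), against 19.7% of all protein-coding genes and 27.4% of mitochondrial ribosomal protein genes. Of the genes with a main-set peak 16 of 75 had it (21.3%), against 25.1% of all protein-coding genes with one. Of those without a peak 1 of 17 had it (5.88%), against 16.7% of all protein-coding genes without one. The median percentile was 89.5 for the 16 genes with the arm and 84.8 for the 59 without. Within 100 bp of the summit the arm was in 14 of the 75 (18.7%), against 15.8% over all protein-coding genes with a peak. RpS27, RpL23A and RpL34b hold it in the sequences above and RpL7 does not. The E-box CACGTG, on both strands, was in 15 promoters (16.3%, against 4.55%), 13 of the large subunit and 2 of the small. TATAAA, read on the gene's strand, was in 25% (against 32.5%), and GAGAGA, on both strands, in 6.52% (against 15.2%). A match is a run of letters and not a bound site.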

How the data were processed

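The data were ChIP-seq peak lists of 2 replicates of 1 group on dm6, per the labels. Each deposited peak has a signal, a score and a summit. The signal is the authors' enrichment value against a control library on an unstated scale. The score is derived from the authors' irreproducible discovery rate, in whole numbers up to 1000, with higher values for more reproducible peaks. For the summit the deposited offset from the peak start was used. Neither aligner nor peak caller is named in the sources used here. The main set was the larger thresholded set made from both replicates, and its lowest score was 830. A further 16 columns of per-input values in the ranked lists were not used.

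Genes and TSSs came from Ensembl release 115 (BDGP 6.54) and sequences from the RefSeq genome of the same build. A summit within 500 bp of any TSS of a gene was assigned to it, the strongest one where there were several. Percentiles were taken over all peaks of a list on the arms. Motifs were matched without mismatch. The work used Python 3.11.15, numpy 2.4.6, scipy 1.17.1 and matplotlib 3.10.9, and the assignment was tested on simulated peaks.

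The genes, lists, motifs and settings were chosen with earlier results of these data known, so no test was made on them. Named genes were the 12 strongest and 6 weakest main-set peaks, all genes without one, all paralogues, genes called in 1 replicate alone and those with a summit nearer to another gene. Some genes that this rule names are not reported here. A few more are named for their roles or positions and were chosen after their values were seen. The alternatives tried were the conservative set, the set of 1 replicate, the 4623 strongest main-set peaks, TSS windows of 250 and 1000 bp, the nearest coding gene only, the most upstream TSS only, peaks that hold a TSS, and motif windows at the summit. With no read counts, the depth is unknown.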

Additional observations from a re-analysis of the deposited data

How the results depend on the processing

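The counts of genes with a peak, in all, per subunit and over paralogue groups, stayed within 1.5 times their main values under each of the alternatives tried. The count of cytosolic ribosomal protein genes with a TSS peak was between 66, among the 4623 strongest main-set peaks, and 79, with a 1000 bp window, and it was 71 to 75 with 1 replicate left out. Without the -like genes, an alternative added after seeing the data, it was 74 of 87. Leaving out 1 replicate gave 42 to 44 large subunit and 27 to 33 small subunit genes, and 8 to 10 mixed paralogue groups, and a 1000 bp window gave 6 mixed groups in place of 9. The median summit position was -40 to -20 bp and the median percentile 78.1 to 86.5 with 1 replicate left out, the lower value of each coming from replicate 1 alone. The main values are close to those of replicate 2, so that this move is no more than the difference between the replicates. The TCT initiator was found in 46 genes, in place of 75, when only the most upstream TSS of each gene was searched, against 2.75% of all protein-coding genes. The alternative itself searches fewer TSSs. No paired analysis was possible because there is 1 group and no contrast.

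Precision is limited by 2 replicates, by peak lists without read counts and by thresholds that turn a level into presence or absence. Whether the same positions would be enriched in the control library was not tested, and whole embryos do not show in which cells a peak arose.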
